A study of Mus musculus with 12 samples.

Results

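Estrogen receptor genes and genes whose expression estrogen receptors are known to control were followed in adipocytes whose precursors had been given 4-hydroxytamoxifen, a compound used to switch on inducible Cre recombinases that is itself an estrogen receptor ligand. The members were 6 genes chosen by name, of 22180 genes tested: Esr1, Esr2 and Gper1, which encode receptors, Pgr and Greb1, which are classical targets, and Nrip1, which is both a target and a corepressor. Each had 1 probe set assigned to its symbol alone, so no choice among probe sets was needed, and none was left out. The data are 12 Affymetrix arrays of mouse cells in 4 groups of 3. All cells were precursors from inguinal fat with the genotype R26Cre/Prdm16floxEx9, that is, a Cre gene at the Rosa26 locus, which is active in nearly all cell types, and a floxed exon of the transcriptional regulator Prdm16. EtOH cells received the ethanol vehicle for 3 days while growing and 4OHT cells received 1 uM 4-hydroxytamoxifen for those 3 days. EtOH_Rosi and 4OHT_Rosi cells were treated the same way and also had 1 uM rosiglitazone, a drug that activates PPARgamma, the nuclear receptor that drives fat cell formation. Cells of the 4 groups were differentiated in a medium with 10% serum, isobutylmethylxanthine, indomethacin, dexamethasone, insulin and T3. The labels give no age or sex of the animals and do not say whether the arrays of a group are separate cultures, so p-values measure the spread between arrays, which may be technical. They also do not give the time between the end of the 4-hydroxytamoxifen treatment and the extraction of RNA.

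Estrogen receptors alpha (Esr1) and beta (Esr2) are ligand-activated transcription factors. Estradiol lets them recruit coactivators, whereas 4-hydroxytamoxifen turns the receptor's last helix so that corepressors bind instead at many genes, although in some tissues and at some genes it acts as a partial agonist. Pgr, the progesterone receptor, and Greb1, a receptor cofactor, are classical genes that estradiol raises and antiestrogens lower. In fat, Esr1 is the main estrogen receptor, and Nrip1 (RIP140) is known as a corepressor that restrains oxidative and thermogenic genes. Gper1 is a membrane G protein-coupled receptor, for which tamoxifen and its hydroxylated form have been described as agonists. These arrays hold no cells given 4-hydroxytamoxifen without the Cre gene or without the floxed allele. An action of the ligand itself and the consequences of Cre activity or of loss of Prdm16 therefore cannot be told apart in any comparison of 4OHT with EtOH cells.

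Promoters of 4 genes are shown because Pgr and Greb1 fell together, and Esr1 and Nrip1 rose together, in the average over both media. The RefSeq promoter table (GRCm38.p6) listed all 6 genes, with 2 starts for each of Esr1, Greb1 and Nrip1, which made 9 windows. The 250 bases before the most upstream listed start of 4 genes follow, 5′ to 3′ on the gene's own strand, and capitals mark GGTCA or its reverse complement TGACC, a single arm of the estrogen response element. They lie at chr9:8899583-8899832 (plus strand) for Pgr, chr12:16800887-16801136 (minus strand) for Greb1, chr10:4611739-4611988 (plus strand) for Esr1 and chr16:76373828-76374077 (minus strand) for Nrip1. The windows of Pgr and Greb1 fall within the RefSeq span of the gene and precede a start inside it, whereas those of Esr1 and Nrip1 end where the gene begins.
Pgr: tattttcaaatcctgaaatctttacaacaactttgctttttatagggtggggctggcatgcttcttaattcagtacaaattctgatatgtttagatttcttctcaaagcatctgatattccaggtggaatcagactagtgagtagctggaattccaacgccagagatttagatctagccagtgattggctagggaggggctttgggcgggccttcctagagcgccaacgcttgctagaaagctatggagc
Greb1: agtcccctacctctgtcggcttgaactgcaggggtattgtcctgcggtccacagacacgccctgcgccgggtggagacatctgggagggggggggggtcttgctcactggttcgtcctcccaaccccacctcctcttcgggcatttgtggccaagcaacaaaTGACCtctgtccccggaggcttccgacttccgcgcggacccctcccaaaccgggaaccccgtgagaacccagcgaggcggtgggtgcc
Esr1: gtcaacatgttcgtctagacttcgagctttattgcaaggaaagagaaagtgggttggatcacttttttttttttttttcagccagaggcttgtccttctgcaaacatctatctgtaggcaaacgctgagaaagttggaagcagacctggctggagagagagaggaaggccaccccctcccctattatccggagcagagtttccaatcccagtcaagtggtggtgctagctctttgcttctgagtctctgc
Nrip1: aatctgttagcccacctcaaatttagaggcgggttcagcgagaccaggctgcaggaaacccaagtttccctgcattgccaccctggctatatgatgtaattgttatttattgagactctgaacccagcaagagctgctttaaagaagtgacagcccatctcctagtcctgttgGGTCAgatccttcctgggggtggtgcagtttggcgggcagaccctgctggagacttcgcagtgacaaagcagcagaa

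The complete element, GGTCA and TGACC with any 3 bases between them, was found in 0 of the 9 windows and in 0.0639% of the 32851 promoter windows of the table. The single arm GGTCA, searched on both strands and counted also where it would be part of the complete element, was found in 4 of the 9 windows, belonging to Esr2, Greb1 and Nrip1, and in 35.2% of all windows. In the windows shown, it stood at position -88 from the start of Greb1, as TGACC, and at -77 from that of Nrip1. Neither the AP-1 site TGANTCA (6.75% of all windows) nor the PPAR response element, AGGTCA repeated after any 1 base (0.0335%), was found in the 9 windows, both strands searched. These matches describe the letters of the windows only. Estrogen receptors bind largely at distant sites, which these windows do not cover.

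Without rosiglitazone, Pgr and Greb1 fell and Esr1 rose after 4-hydroxytamoxifen, while Nrip1, Esr2 and Gper1 did not pass the test. In that medium 5 of the 6 genes, all but Gper1, had an unadjusted p under 0.05. With rosiglitazone 0 of the 6 genes passed limma's test, and 2, Esr1 and Nrip1, had an unadjusted p under 0.05. The test was limma's moderated test on log2 values, fitted over all 12 arrays, with Benjamini-Hochberg adjustment over 22180 genes and a threshold of 0.05. It called 3.91% of all genes without rosiglitazone (2.13% higher and 1.79% lower), beside 1 higher and 2 lower of the 6. With rosiglitazone it called 8.03% of all genes (4.65% higher and 3.38% lower). These shares are at the adjusted threshold, so they are no background for the counts at an unadjusted p under 0.05 given here and below. By rank, between 3542 and 4032 of all 22180 genes were under that unadjusted threshold without rosiglitazone. With rosiglitazone there were between 4302 and 4719. Averaged over both media, 2 of the 6 rose and 2 fell, beside 5.45% and 4.22% of all genes. Rosiglitazone after ethanol raised 1 and lowered 1 of the 6, beside 14.4% and 16.3% of all genes, and after 4-hydroxytamoxifen it raised 1 and lowered none, beside 11.6% and 12.1%. The median difference of the 6 genes was -0.14 without and 0.032 with rosiglitazone, beside medians of 0.00 and -0.0067 over all genes. A second description is whether the 3 arrays of one group all lay above or below the 3 of another. Of all genes, 22.9% did so for 4OHT against EtOH, 21.8% for 4OHT_Rosi against EtOH_Rosi, 40.7% for EtOH_Rosi against EtOH (19.9% higher and 20.9% lower) and 36% for 4OHT_Rosi against 4OHT (18.1% higher and 18% lower).

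**Figure D1:**
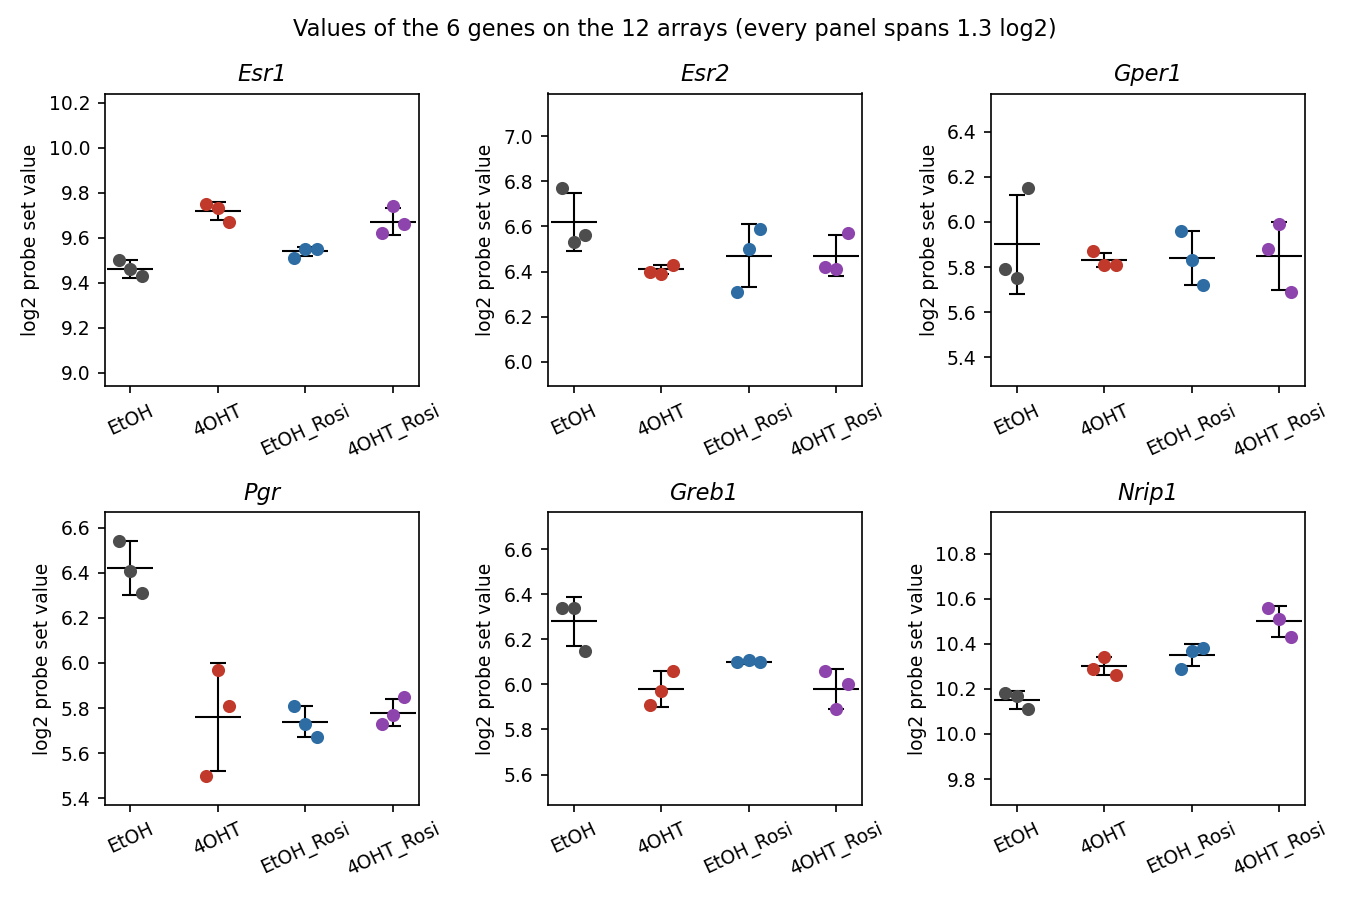
Log2 probe set values (vertical axis, 1.3 log2 in each panel) of the 6 genes in the 4 groups. Points are the 3 arrays of a group and bars the mean and SD. The 3 EtOH arrays lie above the other 9 for Pgr and for Greb1, and the values of Gper1 overlap among all groups.

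Esr1 was bright on all arrays. Its log2 values were 9.50, 9.46 and 9.43 on the EtOH arrays, 9.75, 9.73 and 9.67 on the 4OHT arrays, 9.51, 9.55 and 9.55 on the EtOH_Rosi arrays, and 9.62, 9.74 and 9.66 on the 4OHT_Rosi arrays. In each medium the 3 arrays given 4-hydroxytamoxifen lay above the 3 given ethanol, which 11.2% of all genes did without and 11.5% with rosiglitazone. Without rosiglitazone Esr1 rose by 0.25 ± 0.05 (limma SE, n = 3 per group), or 1.19-fold, with an adjusted p of 0.0181. With rosiglitazone the difference was 0.14 ± 0.05 and the adjusted p was 0.161. The test of whether the effects differed between the media gave -0.12 ± 0.08 (adjusted p = 0.547, 95% interval -0.28 to 0.05). Averaged over both media, which compares 6 arrays with 6, Esr1 rose by 0.20 ± 0.04 (adjusted p = 0.00527), a contrast that called 9.68% of all genes. The call without rosiglitazone was lost without EtOH 2 (adjusted p 0.0708), EtOH 3 (0.0753), 4OHT 1 (0.0873) or 4OHT 2 (0.074), whereas the averaged rise passed without any single array. The difference between media was 0.07 ± 0.05 after ethanol (adjusted p = 0.366) and by -0.04 ± 0.05 after 4-hydroxytamoxifen (adjusted p = 0.649). The order of the groups was 4OHT, 4OHT_Rosi, EtOH_Rosi and EtOH, and only 4OHT and 4OHT_Rosi overlapped as neighbours. The share of all genes so ordered was not counted. The labels do not say whether the Cre is fused to part of a receptor, nor where in the transcript the probe set lies. Whether it reads any RNA other than that of the mouse gene was not tested.

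Esr2, the second nuclear estrogen receptor, was dim. Its values were 6.77, 6.53 and 6.56 on the EtOH arrays, 6.40, 6.39 and 6.43 on the 4OHT arrays, 6.31, 6.50 and 6.59 on the EtOH_Rosi arrays, and 6.42, 6.41 and 6.57 on the 4OHT_Rosi arrays. The 4OHT arrays lay below the EtOH arrays, as they did for 11.7% of all genes. Groups next to each other in order of mean overlapped. The difference without rosiglitazone was -0.21 ± 0.08 (adjusted p = 0.209, 95% interval -0.39 to -0.03), and with rosiglitazone the group means were equal to 2 decimals at 6.47 (95% interval -0.18 to 0.18). For Gper1, the 12 values ran from 5.69 to 6.15, and all groups overlapped. Its differences after 4-hydroxytamoxifen were -0.07 ± 0.11 without rosiglitazone (95% interval -0.29 to 0.16) and 0.017 ± 0.11 with it (95% interval -0.21 to 0.24).

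As a gauge of background, chosen after the values were seen, 1394 olfactory and vomeronasal receptor genes, which adipocytes are not known to express, had a median level of 4.43 and a 95th percentile of 6.30. The 4 group means of Gper1 (5.83 to 5.90) and of Greb1 (5.98 to 6.28) lay below that percentile. Those of Pgr lay below it in 3 groups and above it in EtOH, and those of Esr2 (6.41 to 6.62) lay just above it. Esr1 and Nrip1 were far above it in all groups. Arrays compress differences of dim genes, so differences and intervals of these 4 genes are those of the measured signal and set no limit on the change in RNA.

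Pgr had the largest difference of the 6 genes after 4-hydroxytamoxifen without rosiglitazone. Its values were 6.54, 6.41 and 6.31 on the EtOH arrays, 5.50, 5.97 and 5.81 on the 4OHT arrays, 5.81, 5.73 and 5.67 on the EtOH_Rosi arrays, and 5.73, 5.77 and 5.85 on the 4OHT_Rosi arrays. The EtOH arrays stood above the other 9, which overlapped with one another. Of all genes, 11.7% had their EtOH arrays above the 4OHT arrays and 20.9% above the EtOH_Rosi arrays. The share with the EtOH arrays above all other 9 was not counted. Without rosiglitazone Pgr fell after 4-hydroxytamoxifen by 0.66 ± 0.10 in measured signal (adjusted p = 0.00226), ranking 186th of 22180 genes by p. Rosiglitazone after ethanol lowered it by 0.68 ± 0.10 (adjusted p = 0.00013), in a contrast that called 30.7% of all genes. Both falls use the same 3 EtOH arrays and passed without any single array. With rosiglitazone, 4-hydroxytamoxifen made a difference of 0.047 ± 0.10 (adjusted p = 0.853, 95% interval -0.17 to 0.27). After 4-hydroxytamoxifen, rosiglitazone made one of 0.023 ± 0.10 (adjusted p = 0.912, 95% interval -0.20 to 0.24). Averaged over both media Pgr fell by 0.31 ± 0.07 (adjusted p = 0.0151), a mean of unlike effects. The effects of 4-hydroxytamoxifen in the media differed by 0.71 ± 0.14 (adjusted p = 0.0392), a test that called 1.01% of all genes (0.523% higher and 0.482% lower), and 1 of the 6, higher. That call was lost without EtOH 1, EtOH 2, EtOH 3, 4OHT 1, 4OHT 3, EtOH_Rosi 2, EtOH_Rosi 3, 4OHT_Rosi 2 or 4OHT_Rosi 3, with differences from 0.58 to 0.76 and adjusted p from 0.0575 to 0.0964. All 9 arrays of the other groups lay under the 95th percentile of the olfactory genes, the EtOH_Rosi arrays from which a fall with rosiglitazone would have been measured included. The part of this low signal in the interaction was not tested.

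Greb1 was highest in EtOH, as Pgr was, and its EtOH arrays also lay above all arrays of the other groups. Its values were 6.34, 6.34 and 6.15 on the EtOH arrays, 5.91, 5.97 and 6.06 on the 4OHT arrays, 6.10, 6.11 and 6.10 on the EtOH_Rosi arrays, and 6.06, 5.89 and 6.0 on the 4OHT_Rosi arrays. In both media the treated arrays lay below the ethanol arrays, as they did for 11.7% of all genes without rosiglitazone and 10.3% with it. Without rosiglitazone Greb1 fell by 0.30 ± 0.07 in measured signal (adjusted p = 0.0288). This call was lost without EtOH 1 (adjusted p 0.0953), EtOH 2 (0.131), 4OHT 1 (0.132) or 4OHT 2 (0.0969), and under quantile normalization of the arrays (-0.27, adjusted p = 0.0599). With rosiglitazone the difference was -0.12 ± 0.07 (adjusted p = 0.367). The average over both media was -0.21 ± 0.05 (adjusted p = 0.0153), and passed without any single array. Rosiglitazone after ethanol made a difference of -0.17 ± 0.07 (adjusted p = 0.0769). Without EtOH 3 this was -0.24 with an adjusted p of 0.021.

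Nrip1 had its lowest mean in EtOH and its highest in 4OHT_Rosi. Its values were 10.18, 10.17 and 10.11 on the EtOH arrays, 10.29, 10.34 and 10.26 on the 4OHT arrays, 10.29, 10.37 and 10.38 on the EtOH_Rosi arrays, and 10.56, 10.51 and 10.43 on the 4OHT_Rosi arrays. The EtOH arrays were the lowest 3 and the 4OHT_Rosi arrays the highest 3, while 4OHT and EtOH_Rosi overlapped. Of all genes, 11.2% had the 4OHT arrays and 19.9% the EtOH_Rosi arrays above the EtOH arrays. The 4OHT_Rosi arrays lay above the 4OHT arrays for 18.1% and above the EtOH_Rosi arrays for 11.5%. The share with this whole order was not counted. Rosiglitazone raised Nrip1 by 0.19 ± 0.06 after ethanol (adjusted p = 0.0175) and by 0.20 ± 0.06 after 4-hydroxytamoxifen (adjusted p = 0.0176). These contrasts called 30.7% and 23.7% of all genes. The first call was lost without EtOH 3 (adjusted p 0.0645), EtOH_Rosi 2 (0.0584) or EtOH_Rosi 3 (0.0603), and the second without 4OHT 1 (0.0561), 4OHT 3 (0.0671), 4OHT_Rosi 1 (0.0722) or 4OHT_Rosi 2 (0.05002). After 4-hydroxytamoxifen the differences were 0.14 ± 0.06 without rosiglitazone (adjusted p = 0.216) and 0.15 ± 0.06 with it (adjusted p = 0.129), and the interaction was 0.010 ± 0.08 (95% interval -0.16 to 0.18). Averaged over both media Nrip1 rose by 0.15 ± 0.04 (1.11-fold, adjusted p = 0.0316). That call was lost without EtOH 2, EtOH 3, 4OHT 1, 4OHT 2, EtOH_Rosi 1, EtOH_Rosi 2, 4OHT_Rosi 1 or 4OHT_Rosi 2 (adjusted p from 0.0514 to 0.0813), and under quantile normalization (0.12, adjusted p = 0.0592).

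**Figure D2:**
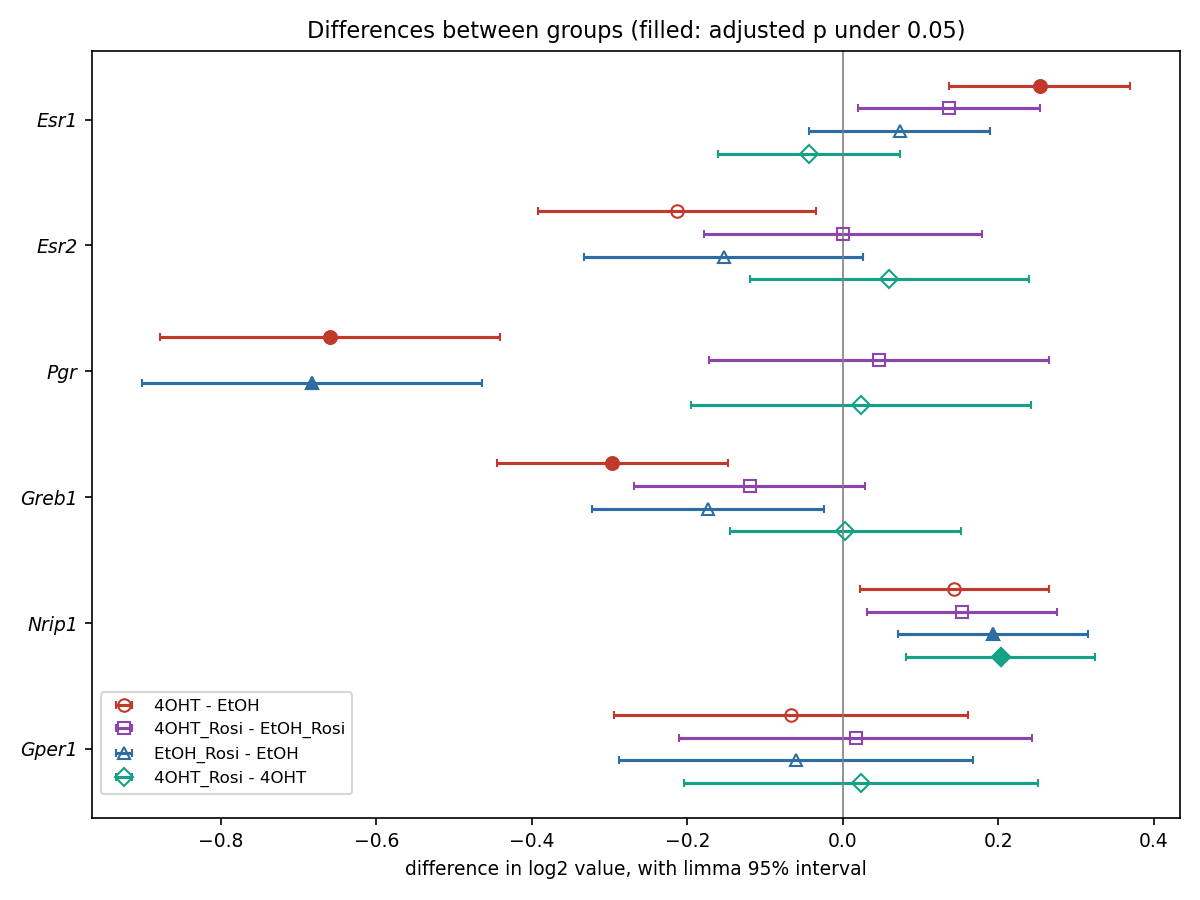
Differences in log2 value between groups (horizontal axis) for the 6 genes, with limma's 95% interval, 3 arrays per group. Filled symbols passed an adjusted p under 0.05. Pgr fell by 0.66 with 4-hydroxytamoxifen and by 0.68 with rosiglitazone, each against EtOH, and its other differences lie near 0.

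Genes with a similar pattern were sought for Pgr and Nrip1, whose group means spanned 0.3 log2 or more. The genes searched were at or above the median level, with some left out by symbol. The closest of them to Pgr over the 12 arrays was Pclaf, which encodes a PCNA-binding factor (Pearson r = 0.95). Next were Aurkb, a mitotic kinase (0.93), and Kif23, a kinesin of cell division (0.92). Group means of Pclaf were 7.89 (EtOH), 7.01 (4OHT), 6.65 (EtOH with rosiglitazone) and 6.72 (4OHT with rosiglitazone). For deviations from the group means, r with Pgr was 0.84 for Pclaf, 0.76 for Aurkb and 0.72 for Kif23. For Nrip1 the closest were Saraf, which encodes a regulator of calcium entry (r = 0.98), Tmem135 (0.98) and Megf9 (0.97). Group means of Tmem135 were 10.31, 10.67, 10.77 and 11.16 in EtOH, 4OHT, EtOH_Rosi and 4OHT_Rosi. For deviations from the group means, r with Nrip1 was 0.89 for Saraf, 0.75 for Tmem135 and 0.79 for Megf9. The arrays share 4 group means, and the genes were picked as the highest of all genes searched, so these values describe likeness only.

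**Figure D3:**
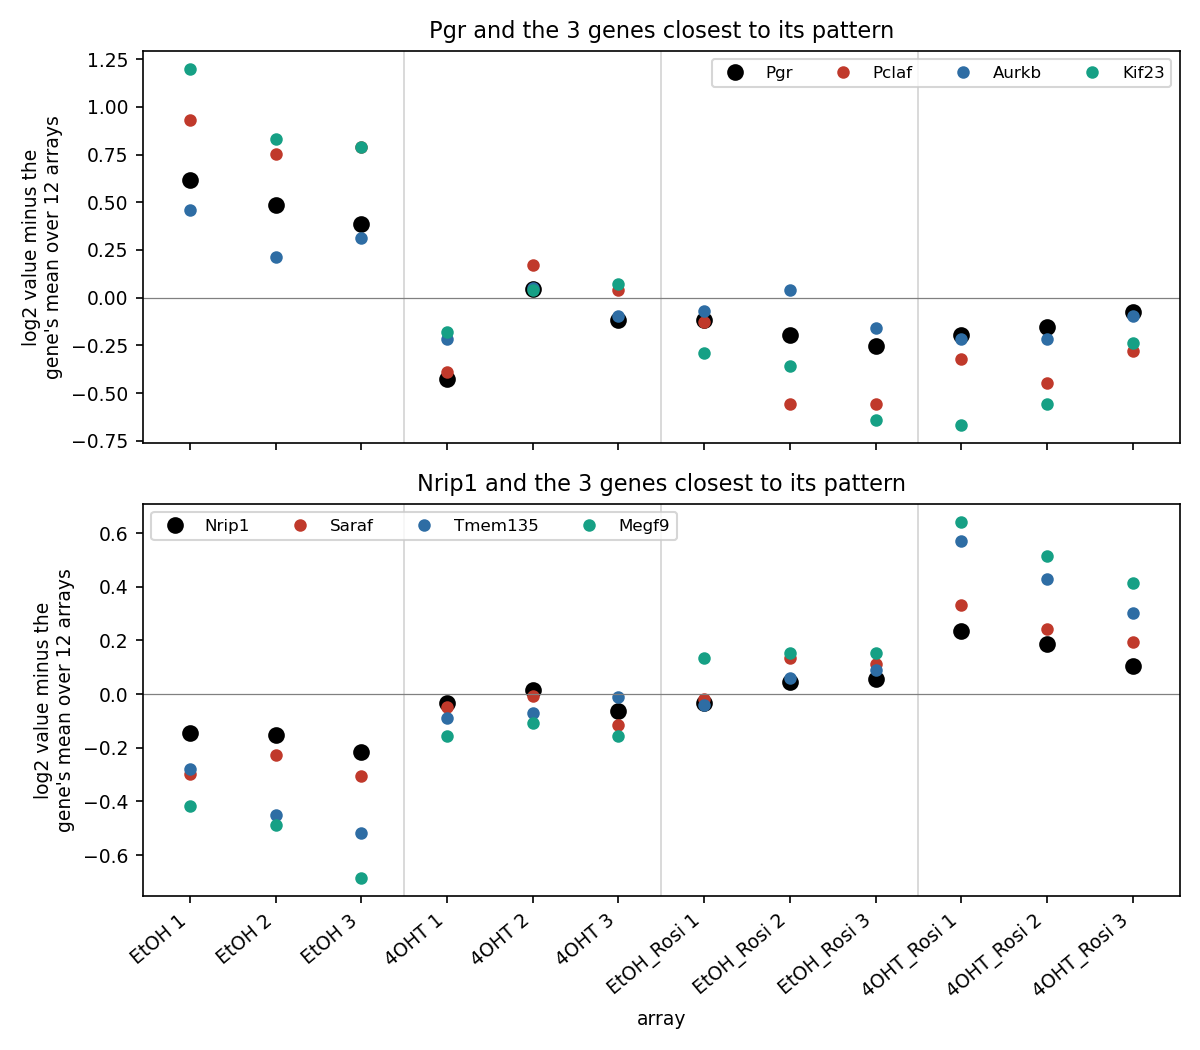
Log2 value minus the gene's own mean over the 12 arrays (vertical axis) on each array (horizontal axis) for Pgr and Nrip1 and the 3 genes most correlated with each. Pclaf, Aurkb and Kif23 have their highest mean in EtOH, as Pgr does, and Saraf, Tmem135 and Megf9 in 4OHT_Rosi, as Nrip1 does.

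Markers of other cell types moved with some of these values. In bulk samples fewer cells of a type and less RNA per cell cannot be told apart. The calls below stand beside shares of all genes. After 4-hydroxytamoxifen limma called 2.13% higher and 1.79% lower without rosiglitazone, and 4.65% higher and 3.38% lower with it. Averaged per array, the 6 measured markers of adipose progenitors or fibroblasts were highest in EtOH (11.27 to 11.34), lower in 4OHT (10.98 to 11.07) and lowest with rosiglitazone (9.91 to 10.23 in EtOH_Rosi and 9.93 to 10.4 in 4OHT_Rosi). Of these, 1 fell after 4-hydroxytamoxifen without rosiglitazone, namely Pdgfra (-0.53 ± 0.09, adjusted p = 0.00489), and 2 were called without 4OHT_Rosi 3. With rosiglitazone Pdgfra also fell (-0.39 ± 0.09, adjusted p = 0.0179), and no gene of the list was called without 4OHT_Rosi 2. The other measured markers of this list all had higher means in 4OHT_Rosi than in EtOH_Rosi. The list's median difference there was 0.088. All 6 fell with rosiglitazone after ethanol and after 4-hydroxytamoxifen, beside 16.3% and 12.1% of all genes. The 6 macrophage markers averaged 8.98 to 9.29 (EtOH), 8.74 to 8.90 (4OHT), 8.50 to 8.64 (EtOH with rosiglitazone) and 8.48 to 8.54 (4OHT with rosiglitazone). Of these, Itgam and Lyz2 fell after 4-hydroxytamoxifen without rosiglitazone, a count of 2. Leaving out any one of the EtOH arrays gave 1, and leaving out 4OHT 2 or 4OHT 3 gave 0. With rosiglitazone Lyz2 fell (-0.20 ± 0.06, adjusted p = 0.0416), and leaving out EtOH 2, 4OHT 2, any EtOH_Rosi array or any 4OHT_Rosi array gave 0. There the means of Adgre1 and Itgam were also lower, whereas those of Cd68, Csf1r and Ptprc were higher. The median difference of the macrophage list was -0.063. The 8 adipocyte markers averaged 11.66 to 11.73 (EtOH), 11.73 to 11.79 (4OHT), 12.10 to 12.12 (EtOH with rosiglitazone) and 12.11 to 12.20 (4OHT with rosiglitazone), and the defining marker Adipoq had group means of 10.57 to 11.06. After 4-hydroxytamoxifen without rosiglitazone Cebpa (0.34) and Pparg (0.24) rose and Cidec fell (-0.39), and 1 of the 8 was called without EtOH 2, EtOH 3, 4OHT 1 or 4OHT 2. With rosiglitazone limma called 0 of the 8 (1 at an unadjusted p under 0.05). Endothelial markers (5 measured) averaged 9.01 to 9.17 without and 8.38 to 8.63 with rosiglitazone. Of these, Kdr, a receptor for vascular endothelial growth factor, rose after 4-hydroxytamoxifen with rosiglitazone (0.49 ± 0.09, adjusted p = 0.00366). The means of Pecam1, Tek and Vwf were lower in 4OHT_Rosi than in EtOH_Rosi and that of Cdh5 was higher. The list's median difference there was -0.043. The interaction of Kdr also passed (0.61 ± 0.12, adjusted p = 0.0379), in a test that called 1.01% of all genes. However, no gene of the list was called there when any array other than 4OHT_Rosi 1 was left out. Mammary epithelium, which inguinal fat pads can hold and which expresses Esr1 and Pgr, was followed by 9 markers. They averaged 6.34 to 6.58 (EtOH), 6.39 to 6.52 (4OHT), 6.17 to 6.43 (EtOH with rosiglitazone) and 6.41 to 6.72 (4OHT with rosiglitazone), and limma called 0 of the 9 after 4-hydroxytamoxifen in either medium (0 without and 4 with rosiglitazone at an unadjusted p under 0.05). These 4 were genes of luminal cells, each with a higher mean in 4OHT_Rosi: Krt8 by 0.54 ± 0.18, Epcam by 0.52 ± 0.20, Krt18 by 0.41 ± 0.15 and Cdh1 by 0.32 ± 0.10 (adjusted p from 0.0625 to 0.158). Epcam ran from 6.79 to 7.80 on the 4OHT_Rosi arrays. Leaving out 4OHT_Rosi 2 gave 2 of the 9 called and leaving out EtOH_Rosi 1 gave 1. Another keratin gene, Krt19, was not among the 9 and fell in the same comparison (-0.50 ± 0.08, adjusted p = 0.00224). The milk protein gene Csn2 (4.28 to 4.50) and the alveolar regulator Elf5 (4.98 to 5.01) were near the olfactory median in all groups, whereas the keratin gene Krt8 had means of 8.15 to 8.70. The part of progenitor, macrophage, endothelial and epithelial cells in the levels of the 6 genes was not tested.

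Other genes of the pathway were taken as lists and are described by counts. Single genes are also named, some of them after their values were seen. Of 24 measured coregulators and partner factors of estrogen receptors, limma called 0 after 4-hydroxytamoxifen without rosiglitazone (5 at an unadjusted p under 0.05), beside 3.91% of all genes. With rosiglitazone 2 rose, Lcor, a ligand-dependent corepressor (0.26 ± 0.06, adjusted p = 0.0229), and the acetyltransferase gene Kat2b (0.23 ± 0.06, adjusted p = 0.0343), and none fell, beside 8.03% of all genes. Leaving out EtOH_Rosi 2, EtOH_Rosi 3 or 4OHT_Rosi 1 gave 0, and leaving out EtOH 2, EtOH_Rosi 1, 4OHT_Rosi 2 or 4OHT_Rosi 3 gave 1. The list's median differences were 0.0033 and -0.0067. Rosiglitazone after ethanol raised 4 of the 24, among them Lcor (0.50) and Phb2 (0.38), and lowered 6, among them the coactivator Ncoa3 (-0.59) and Pelp1 (-0.47), beside 14.4% and 16.3% of all genes.

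Of 23 other genes known to respond to estrogen, 1 fell and none rose after 4-hydroxytamoxifen without rosiglitazone, beside 1.79% and 2.13% of all genes. It was Tnfsf11, which encodes the cytokine RANKL (-0.44 ± 0.11, adjusted p = 0.04997). Its mean was 6.63 in EtOH and 6.19 in 4OHT, the second of them under the 95th percentile of the olfactory genes (6.30). This fall is therefore one of measured signal. Leaving out EtOH 2, EtOH 3, any 4OHT array or any EtOH_Rosi array gave 0, and leaving out 4OHT_Rosi 1 gave 2. With rosiglitazone 4 rose and 3 fell, beside 4.65% and 3.38% of all genes, with a median of -0.06. Cyclin D1, Ccnd1, rose by 0.80 ± 0.08 (adjusted p = 6.10e-05), the antiapoptotic gene Bcl2 by 0.58 ± 0.06 (adjusted p = 0.000117), the growth factor gene Igf1 by 0.63 ± 0.11 (adjusted p = 0.00253) and Fos by 0.53 ± 0.07 (adjusted p = 0.000583). The keratin gene Krt19 (-0.50), Stc2 (-0.59) and Xbp1 (-0.18) fell. Between 6 and 7 of the list were called when any single array was left out. Rosiglitazone after ethanol, a comparison that shares the EtOH_Rosi arrays, lowered 8 and raised 4 of the 23, beside 16.3% and 14.4% of all genes. It lowered Ccnd1 (-1.22), Bcl2 (-1.01), Igf1 (-0.59), the binding protein gene Igfbp4 (-1.08) and the chemokine gene Cxcl12 (-1.34), and raised Krt19 (0.91), Stc2 (0.44) and Fos (0.38). In the interaction limma called 0 of the 23, beside 1.01% of all genes, and 7 had an unadjusted p under 0.05. That share is at the adjusted threshold and is no background for the 7. By rank, fewer than 4486 of all 22180 genes were under the unadjusted threshold in the interaction. Of the genes named from this list, the smallest adjusted p in the interaction was that of Bcl2 (0.42 ± 0.09, adjusted p = 0.0517).

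Calls in the smaller lists stand beside these shares of all genes. After 4-hydroxytamoxifen limma called 3.91% without rosiglitazone, 8.03% with it and 9.68% over both media. With rosiglitazone against none it called 30.7% after ethanol and 23.7% after 4-hydroxytamoxifen. Of 7 measured genes of estrogen synthesis and inactivation, Hsd17b7, a 17-beta-hydroxysteroid dehydrogenase that also acts in cholesterol synthesis, rose after 4-hydroxytamoxifen without rosiglitazone (0.40 ± 0.07, adjusted p = 0.0036) and none fell. With rosiglitazone Hsd17b12 rose (0.28 ± 0.07, adjusted p = 0.0314), and no gene of the list was called when any EtOH_Rosi array, 4OHT_Rosi 1 or 4OHT_Rosi 2 was left out. Rosiglitazone after ethanol raised Hsd17b12 by 1.06 and Hsd17b7 by 0.82 and lowered Cyp1b1, a cytochrome P450 that hydroxylates estrogens (-1.32). Over both media together Hsd17b1, which makes estradiol from estrone, fell after 4-hydroxytamoxifen (-0.16 ± 0.04, adjusted p = 0.0281), while Hsd17b7 and Hsd17b12 rose (0.25 and 0.23). Group means of Hsd17b1 (6.36 to 6.59) lay just above the 95th percentile of the olfactory genes (6.30). The estrogen sulfotransferase Sult1e1 had group means of 4.39 to 4.53, near the olfactory median. Of 4 other proteins that bind 4-hydroxytamoxifen or tamoxifen, the estrogen-related receptor genes Esrrb (5.30 to 5.46) and Esrrg (6.54 to 6.62) did not pass in any comparison. Dhcr7, a cholesterol synthesis enzyme and part of the microsomal antiestrogen binding site, rose with rosiglitazone present (0.35 ± 0.07, adjusted p = 0.00767), whereas Ebp, the other part of that site, passed only between media (-0.21 and -0.26 with rosiglitazone). After 4-hydroxytamoxifen with rosiglitazone present, only Bag1 of 6 receptor chaperone genes rose (0.28 ± 0.05, adjusted p = 0.00696). Of 9 genes of membrane-initiated signalling Egfr fell there (-0.24 ± 0.05, adjusted p = 0.0128), with a count of 2 without 4OHT_Rosi 3. Without rosiglitazone limma called 0 of these chaperone, membrane signalling and tamoxifen-binding genes (0, 3 and 1 at an unadjusted p under 0.05). For the membrane signalling genes over both media together, Egfr fell (-0.20 ± 0.04, adjusted p = 0.00404), and Strn, a scaffold protein gene (0.24 ± 0.05, adjusted p = 0.00937), and the caveolin gene Cav1 (0.15 ± 0.04, adjusted p = 0.0391) rose. Rosiglitazone after ethanol lowered Egfr (-0.64), Hbegf (-0.54) and the kinase gene Src (-0.51) and raised Strn (0.36). Of the chaperone genes, rosiglitazone after ethanol raised only Hsp90aa1 (0.17). That count of 1 fell to 0 without EtOH 1, EtOH 3, 4OHT 1, 4OHT 2 or any EtOH_Rosi array, and was 2 without 4OHT_Rosi 2. In 4OHT_Rosi against 4OHT cells, Bag1 (0.28) and Fkbp4 (0.20) rose. This count of 2 fell to 1 when any array other than 4OHT 2 or 4OHT_Rosi 3 was left out. The glucocorticoid receptor gene Nr3c1, whose ligand dexamethasone was in the medium, was bright (10.32 to 10.39) and differed by 0.07 ± 0.07 without and by 0.0033 ± 0.07 with rosiglitazone (adjusted p = 0.72 and 0.986). Cyp19a1 was not analysed here.

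**Figure D4:**
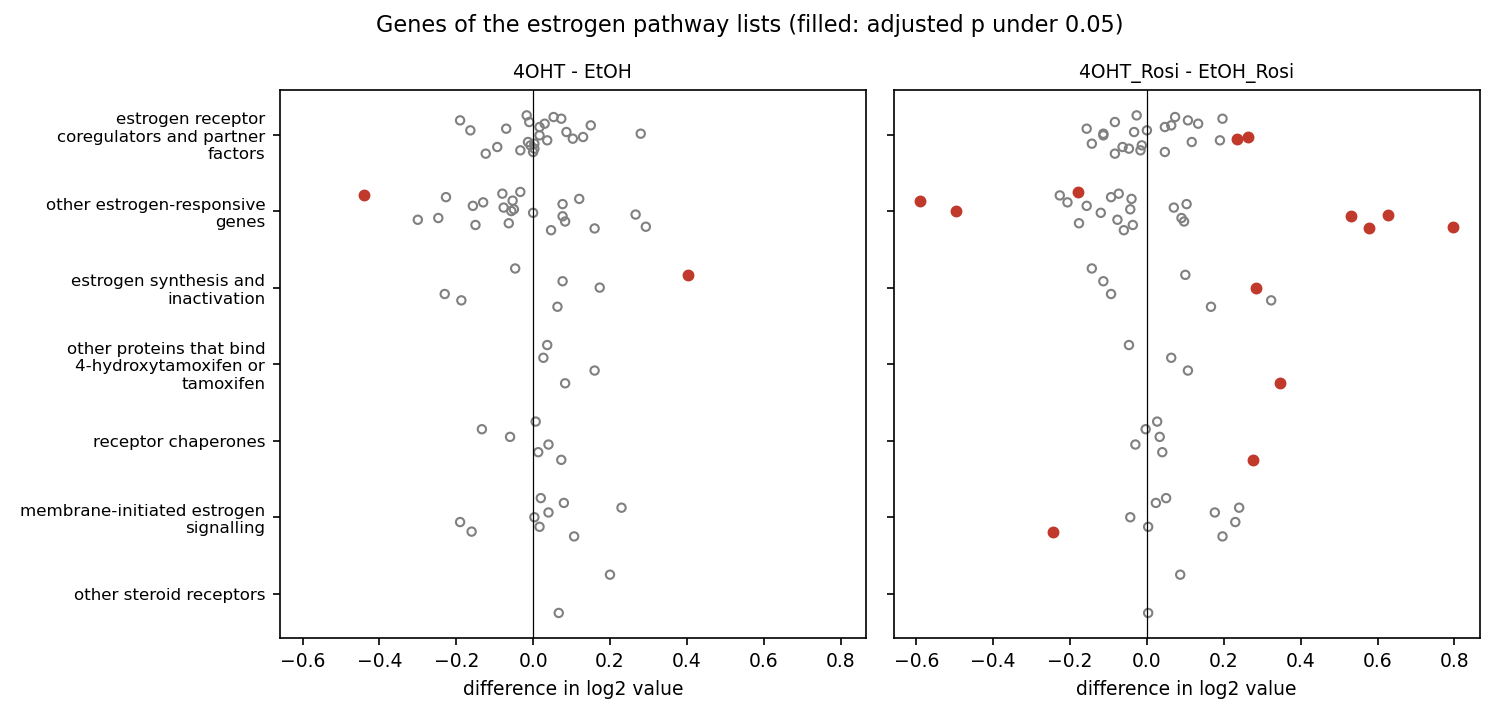
Differences in log2 value after 4-hydroxytamoxifen (horizontal axis) for each measured gene of the 7 lists, without rosiglitazone on the left and with it on the right. Each point is 1 gene, and filled points passed an adjusted p under 0.05. On the left 2 genes are filled, Tnfsf11 and Hsd17b7, and on the right the widest spread is among the other estrogen-responsive genes.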

How the data were processed

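The 12 arrays were grouped by their labels. The authors deposited log2 probe set values (41345 probe sets, no missing values). Affymetrix Expression Console is named in the submitters' processing notes, whereas no source used here gives its version, summary method or normalization. Of the probe sets, 23521 had 1 gene symbol, 1814 had several and were not used, and 15820 besides 190 controls had none. Names were updated through Entrez IDs to RefSeq for 23328. Where a gene had several probe sets (1082 genes) the brightest by mean over the 12 arrays was used, leaving 22180 genes, with no filter on dim genes. Array signal limits these data: array medians were 5.97 to 6.05 and the lowest value 3.05.

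A model with 1 mean per group was fitted with limma 3.58.1 in R 4.3.3 (8 residual and 5.07 prior degrees of freedom), with 6 contrasts and Benjamini-Hochberg adjustment over all genes within each. Intervals are 95% intervals of the moderated fit. The scripts were tested on simulated data with 200 of 22180 genes changed. Of changes of 0.2 log2 after 4-hydroxytamoxifen, 4.48% were recovered without and 5.97% with rosiglitazone. Of changes of 0.5 log2, 76.1% and 74.6% were recovered. In the interaction 0% were recovered at 0.2 log2 and 32.8% at 0.5 log2. A gene that was not called may therefore still have changed by such amounts. Plots were made in Python 3.11.15 (matplotlib 3.10.9).

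The 6 genes, the lists and the markers were chosen with earlier results of these data known. All 6 genes are named. From each pathway list are named called genes, up to 4 by smallest p over the contrasts, with Esrrb, Esrrg, Nr3c1 and Sult1e1. Kat2b, Tnfsf11, Igf1, Fos, Krt19, Stc2, Xbp1, Cav1 and all cell type markers given singly fall outside this and were named after their values were seen. The 3 genes of most similar pattern were sought, by Pearson r, only for members whose group means spanned 0.3 log2, among genes at or above the median level. Left out by symbol were predicted genes, small RNAs, olfactory and vomeronasal receptor genes, and every gene whose symbol begins with Rn, protein-coding ones included. Of 88 listed pathway genes 75 were measured. Results were recomputed with the replicate number as a block, with only the compared groups in the model, with a trend on intensity and robust eBayes, after quantile normalization, above the median level only, from the mean of all probe sets, and without each array in turn. Counts of list genes without each array were a choice made after seeing the data.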

Additional observations from a re-analysis of the deposited data

Results flagged for a closer look

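The effect of 4-hydroxytamoxifen on Pgr differed between the media by the test of the interaction. Pgr fell by 0.66 without rosiglitazone and differed by 0.047 with it, a difference between effects of 0.71 ± 0.14 (limma adjusted p = 0.0392), as the mean in EtOH (6.42) stood above those of the other 3 groups (5.74 to 5.78). The means of those 3 groups lie below the 95th percentile of olfactory receptor genes (6.30), so the test is of measured signal, and the part of low signal in it was not tested. The call was lost in 9 of the 12 fits that left out 1 array. Groups of 3 arrays were not searched for outlying arrays.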

How the results depend on the processing

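Same-numbered arrays of different groups did not deviate together (r of deviations from group means -0.24 to 0.079, with 0 of 18 pairs over 0.1), so the numbers were not taken as pairs. With a replicate block the call was lost for Greb1 without rosiglitazone (-0.30, adjusted p = 0.0638), Nrip1 averaged over both media (0.15, 0.0576) and the Pgr interaction (0.71, 0.0796), and 116 genes were called in the interaction in place of 223. Under quantile normalization Greb1 without rosiglitazone (-0.27) and Nrip1 averaged (0.12) did not pass. The interaction called 393 genes with an intensity trend and robust eBayes and 381 among genes at or above the median level, a filter that removed Esr2, Pgr, Greb1 and Gper1, so they have no value there. With only the 2 groups compared, 829 genes were called with rosiglitazone in place of 1782. The mean of all probe sets says nothing about the 6 genes, which have 1 each. Leaving out each array gave 475 to 1059 genes called without rosiglitazone (868 with all arrays), 1182 to 1712 with it and 51 to 331 in the interaction. Over the same 12 fits, Esr1 without rosiglitazone ranged from 0.24 to 0.28, Greb1 from -0.36 to -0.26, Nrip1 averaged from 0.13 to 0.17, Nrip1 with rosiglitazone against none from 0.17 to 0.22 after ethanol and 0.17 to 0.24 after 4-hydroxytamoxifen, and the Pgr interaction from 0.58 to 0.81. Greb1 with rosiglitazone after ethanol ranged from -0.24 to -0.14. Values that crossed 0 were never called. They were Gper1 after 4-hydroxytamoxifen without (-0.14 to 0.060) and with rosiglitazone (-0.052 to 0.098) and averaged (-0.062 to 0.038), Gper1 with rosiglitazone after ethanol (-0.13 to 0.067) and after 4-hydroxytamoxifen (-0.045 to 0.105), and the Gper1 interaction (-0.043 to 0.17). Others were Esr2 after 4-hydroxytamoxifen with rosiglitazone (-0.078 to 0.062), Pgr (-0.11 to 0.13) and Greb1 (-0.035 to 0.050) with rosiglitazone after 4-hydroxytamoxifen, and the Nrip1 interaction (-0.020 to 0.045). The cause of these changes was not tested, except that fewer arrays or genes entered the fits named. Low signal limits Pgr, Greb1, Gper1 and Esr2.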
